A study of Mus musculus with 6 samples.

Results

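The Rag1 and Rag2 locus of the mouse was followed through open chromatin in 3 pro-B cell lines. Its members are the peaks of 6 deposited ATAC-seq lists that overlap chromosome 2 from 101380000 to 101560000 of build mm9. The 123 peaks of this window gave 28 regions once peaks sharing at least 1 bp were joined, out of 149724 regions in the whole series. Of the 28 regions 12 held a peak in every list. In that window Rag2 lies near 101465000 to 101473000 and Rag1 near 101478000 to 101490000. These spans are approximate and set the names used here: the Rag2 start region overlaps the low end of the Rag2 span and the Rag1 start region the high end of the Rag1 span.

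All 3 lines are untreated pro-B cell lines of strain 129SV from bone marrow, and all are described as deficient in RAG2. WT has intact IgH alleles. CBE_1 and CBE_2 are labelled IGCR1-/- and have mutated IGCR1, a CTCF-bound control region of the immunoglobulin heavy chain locus on another chromosome. Each line is represented by 2 libraries of 200000 cells, and nothing in the labels says that these came from separate cultures, so the spread between them may be technical. With 1 WT line, effects of genotype and of line cannot be told apart. How Rag2 was inactivated is not given in the sources used here, and a peak or its absence at Rag2 is therefore no check of that label. Peak names begin with RAG1 in the list of WT replicate 1 and with RAG2 in that of WT replicate 2. They are read here as library names, since the labels call both wild type, but the sources used here do not say what they stand for, and each WT value below rests on that reading. The pro-B label was not checked against marker genes, since no gene annotation of mm9 was used.

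RAG1 and RAG2 form the recombinase that cuts DNA beside the V, D and J segments of antigen receptor genes, and pro-B cells use it to assemble the heavy chain gene. The genes are neighbours and are transcribed towards each other, so that their starts face away from one another. Rag2 is read towards higher coordinates and Rag1 towards lower ones. Upstream of Rag2 lie enhancers that act on both genes, among them Erag, which serves the B lineage, and an anti-silencer element that serves developing T cells. Transcription factors such as FOXO1, E2A, ETS1 and Ikaros are known regulators of the pair. In the RefSeq gene order Iftap (also called NWC), which encodes an intraflagellar transport-associated protein, precedes Rag2, and Rag1 is followed by the non-coding gene Gm34041 and by Traf6, which encodes an adaptor of TNF and interleukin-1 receptor signalling.

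The sequences at the starts of Rag1 and Rag2 are shown because the peaks that differed most in rank between the lines lie at or beside the approximate gene starts. Each is the RefSeq promoter window of build GRCm38.p6, from 250 bases before to 50 bases after the annotated start, which is base 251. The Rag1 window is chr2:101649483-101649782 on the minus strand and the Rag2 window chr2:101624462-101624761 on the plus strand. These are not mm9 positions, and where the peaks fall within the windows was not determined. Capitals mark every match, on either strand, to 6 short motifs. The letters searched were CCAAT for the box bound by the factor NF-Y, and CAGGTG for the E box preferred by E2A. A further form of the E box was searched with the letters CAGCTG. The core shared by Ets factors was searched as GGAA, the Runx site as TGTGGT, and the box near many fixed transcription starts as TATAAA.
Rag1: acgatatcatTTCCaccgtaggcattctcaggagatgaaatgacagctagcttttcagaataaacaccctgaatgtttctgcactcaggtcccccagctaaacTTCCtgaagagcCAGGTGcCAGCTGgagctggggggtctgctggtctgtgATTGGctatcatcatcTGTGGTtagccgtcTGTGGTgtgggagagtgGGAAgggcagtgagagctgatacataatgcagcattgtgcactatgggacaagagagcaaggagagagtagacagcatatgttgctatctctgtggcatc
Rag2: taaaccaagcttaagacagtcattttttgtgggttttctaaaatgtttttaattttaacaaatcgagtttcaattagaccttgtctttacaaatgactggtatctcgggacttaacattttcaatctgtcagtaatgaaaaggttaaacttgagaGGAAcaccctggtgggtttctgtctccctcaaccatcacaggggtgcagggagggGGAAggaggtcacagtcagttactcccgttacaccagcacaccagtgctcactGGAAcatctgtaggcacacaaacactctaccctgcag

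The windows of the pair differed in these letters. The Rag1 window held 2 adjacent E boxes, CAGGTG at positions 116 to 121 and CAGCTG at 123 to 128, counted from its 5′ end. It also held a CCAAT box in reverse at 154 to 158 and 2 TGTGGT matches, at 170 to 175 and 184 to 189. None of the matches overlapped another. Of 32544 distinct promoter windows of this length 20.3% held CAGGTG, 16.4% CAGCTG, 37.4% CCAAT and 16.7% TGTGGT. The Rag2 window held none of these and 3 matches to GGAA, a core that 96.0% of windows hold and that the Rag1 window also held 3 times. Neither window held TATAAA, found in 13.6% of windows. The Rag1 window had a GC content of 50.0% and the Rag2 window 43.0%, against a median of 53.0%. These matches describe letters and do not show that a factor binds.

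The lists differed in length, with 112241 and 106056 peaks for WT, 72318 and 80242 for CBE_1, and 94665 and 97522 for CBE_2. The number of reads behind them is unknown. A peak's deposited fold over background is a value within its own list. To set libraries side by side, the fold of each of the 47767 regions present in all 6 lists was turned into a percentile within each library, so that every library ranked the same set and 100 is the strongest. The strongest peak of a region stood for it. No percentile can exceed 100, so a region that ranked high in WT had less room to rise than a low one. Differences in percentile are given in points, as the mean of the 4 mutated libraries minus the mean of the 2 WT libraries. Their exact permutation test over the 15 choices of 2 of the 6 libraries is two-sided and cannot go below p = 0.0667, so no such difference can pass 0.05. It treats the 6 libraries as separate units although they are duplicates of 3 lines. Its p-values therefore do not measure the spread between lines.

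The locus took a larger share of the lists of the mutated lines than of WT. Of all peaks, 0.0169% and 0.0170% lay in the window for WT, compared with 0.0249% and 0.0237% for CBE_1 and 0.0275% and 0.0236% for CBE_2. Every mutated library stood above both WT libraries. In number of peaks the window held 19 and 18 for WT, 18 and 19 for CBE_1, and 26 and 23 for CBE_2, so in CBE_1 the larger share goes with a shorter list. The mean share was 0.0249% in the mutated libraries and 0.0170% in WT, a difference of 0.00795 percentage points (exact permutation p = 0.0667, two-sided). With the same number of peaks taken from each list the difference was 0.0038 percentage points (exact permutation p = 0.133). Peaks of the window covered 14000 and 12798 bp for WT, 13231 and 15435 bp for CBE_1, and 21986 and 21453 bp for CBE_2. As a share of all covered bases this was 0.0172% on average in WT and 0.0284% in the mutated libraries (exact permutation p = 0.0667, two-sided). The covered bases of the window in CBE_1 overlapped those in WT. Its larger share goes with fewer covered bases in the whole list, 52.6 and 59.6 Mb against 80.1 and 75.4 Mb for WT.

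**Figure D1:**
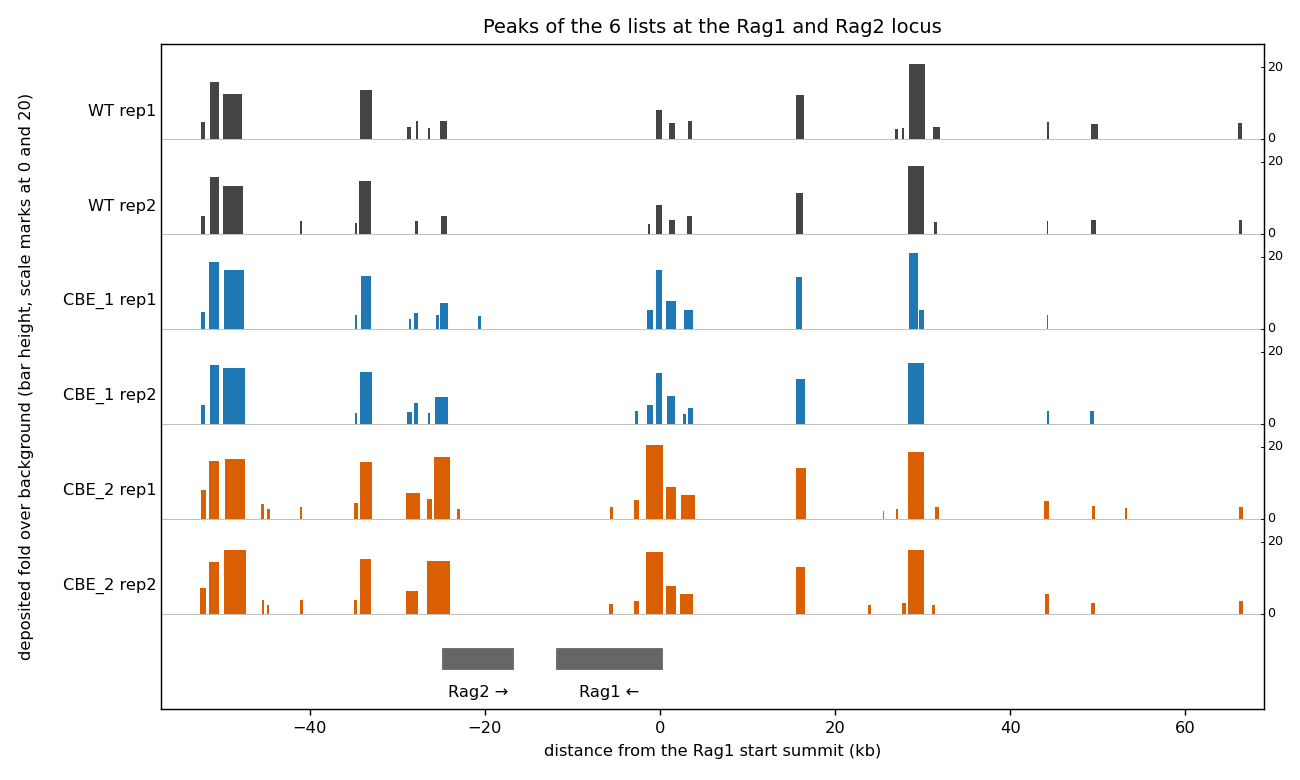
Peaks of each list along the locus, as distance in kb from the median summit of the Rag1 start region, with the deposited fold over background as bar height (scale marks at 0 and 20 in each row) and peak width as bar width. Grey bars below mark the approximate gene spans with the direction of transcription, and the 57.3 kb without a peak at the low end of the window are drawn only in part. The bars at the Rag2 start, near -24.8 kb, and at the Rag1 start, at 0, are taller in the CBE_2 rows than in the WT rows.

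The regions formed groups along the locus, as the map of peaks shows. No list had a peak in the first 57.3 kb of the window. Upstream of Rag2, 9 regions ended before its approximate span, 5 of them shared by all lists. The gene bodies were nearly empty: away from the start regions, the Rag2 span held 2 regions and the Rag1 span 2, each in 1 to 3 lists. Between 101469298 and 101483916, a stretch of 14.6 kb that includes the facing ends of the genes, no list had a peak. Beyond the Rag1 start lay 13 regions, 5 of them shared. The summits of the Rag2 and Rag1 start regions were 24.8 kb apart.

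At the Rag2 start, open chromatin ranked lowest in WT, higher in CBE_1 and highest in CBE_2. The region spans 101463205 to 101465841, and the summit of its strongest peak moved by 88 bp at most between libraries. Its deposited folds were 4.98 and 5.05 in the WT lists, 7.24 and 7.51 in those of CBE_1, and 17.2 and 14.8 in those of CBE_2. In percentiles of the shared regions, WT stood at 21.6 and 23.1, CBE_1 at 54.3 and 55.2, and CBE_2 at 83.9 and 79.4. Duplicates of a line lay at most 4.48 points apart and no line overlapped another. The difference of 45.9 points between the mutated and WT libraries was the highest of the 12 shared regions of the locus (exact permutation p = 0.0667, two-sided). Across the genome 356 shared regions, or 0.745%, had a difference at least as high. Regions that ranked high in WT had too little room to reach that difference. For CBE_2 alone the difference from WT was 59.3 points, reached by 192 regions or 0.402%, and for CBE_1 32.4 points, reached by 1097 regions or 2.30%. By fold, the peak was in the top 39.7% and 41.2% of its own list for WT, 31.8% and 27.9% for CBE_1, and 8.15% and 10.2% for CBE_2. The Rag2 start did not keep the highest difference of the locus under every setting. Taken as a share of its own list, the region 1.25 kb from the Rag1 start summit had a higher one. That region was also slightly higher when either CBE_2 library was left out. When only the better 50% of each list was kept, the Rag1 start was higher than the Rag2 start. The Rag2 start then differed by 47.3 points (exact permutation p = 0.133, two-sided). As a share of its own list its difference was 20.9 points (exact permutation p = 0.133, two-sided). Both p-values lie above the lowest possible one.

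Peaks at the Rag2 start were also broader in the mutated lines. They covered 983 and 747 bp for WT, 1279 and 1606 bp for CBE_1, and 2404 and 2637 bp for CBE_2. The region joined a main peak with a small neighbour on its upstream side. In WT replicate 1 that neighbour was a separate peak with a fold of 2.92, in CBE_1 replicate 2 it had a fold of 3.13, and in CBE_2 replicate 1 a fold of 5.52. In CBE_2 replicate 2 a single peak of 2637 bp ran across both places. WT replicate 2 had the main peak alone, and CBE_1 replicate 1 had a second peak nearer to it, with a fold of 3.92. Within the Rag2 span the other 2 regions were each found in 1 list, at 101466644 to 101466938 in CBE_2 replicate 1 (fold 2.82) and at 101469029 to 101469297 in CBE_1 replicate 1 (fold 3.47).

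The Rag1 start followed the same order of lines. Its region, at 101488180 to 101490127, had folds of 8.01 and 8.13 for WT, 16.4 and 14.2 for CBE_1, and 20.6 and 17.1 for CBE_2. The percentiles were 47.8 and 48.7 for WT, 77.4 and 76.6 for CBE_1, and 92.4 and 86.8 for CBE_2, again with no overlap between lines. The difference of the mutated from the WT libraries was 35.1 points (exact permutation p = 0.0667, two-sided), and 1.65% of shared regions had one at least as high. As a share of its own list the difference was 14.5 points. Summits of the main peak lay within 75 bp of each other in all 6 libraries. Among the better 50% of each list the difference was 50.7 points.

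Inside Rag1, chromatin next to its start was covered more often in the mutated lines. A second peak on the gene side of the start, with its summit at -1.31 to -1.05 kb relative to that of the Rag1 start, was absent from WT replicate 1. It was weak in WT replicate 2 (fold 2.86, 295 bp). In CBE_1 it had folds of 5.28 and 5.11 over 707 and 702 bp, and in both CBE_2 libraries a single peak of 1948 or 1911 bp took in both places. Further into the gene, a region at 101486846 to 101487420 was found in CBE_1 replicate 2 (fold 3.65) and in both CBE_2 libraries (5.27 and 3.54). The next, at 101483917 to 101484467, was found only in the CBE_2 lists, with folds of 3.31 and 2.79. WT had no peak in either of these.

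Upstream of Rag1, the region nearest to its start differed about as much from WT. Its folds were 4.54 and 3.96 for WT, 7.84 and 7.71 for CBE_1, and 8.95 and 7.73 for CBE_2. This region, at 101490467 to 101491616, has its summit 1.25 kb from that of the Rag1 start. Its percentiles were 16.7 and 10.9 for WT, 57.2 and 56.2 for CBE_1, and 55.5 and 49.9 for CBE_2. The difference from WT was 40.9 points (exact permutation p = 0.0667, two-sided), with 1.09% of shared regions at least as high. For CBE_1 it was 42.9 points and for CBE_2 38.9 points. On this scale both CBE_1 libraries ranked above both CBE_2 libraries, the only shared region of the locus where this was so. As shares of their own lists the order turned, with the peak in the top 29.7% and 27.2% for CBE_1 and the top 23.7% and 26.2% for CBE_2. It was not among the shared regions when only the better 50% of each list was kept.

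Farther upstream of Rag1 the differences were smaller. At 101492083 to 101493816, 3.28 kb from the Rag1 start summit, WT stood at 21.6 and 23.1, CBE_1 at 39.5 and 28.1, and CBE_2 at 40.6 and 31.9. The mutated lines overlapped each other here, and the difference from WT was 12.7 points (exact permutation p = 0.133, two-sided). It was 4.68 points with the better 50% of each list and 0.670 points as a share of its own list. The deposited folds of this region were 4.98 and 5.05 for WT, 5.28 and 4.48 for CBE_1, and 6.62 and 5.58 for CBE_2. In fold, CBE_1 replicate 2 thus lay below both WT libraries. At 101505348 to 101506482, 15.9 kb from that summit, all libraries had a strong peak, with folds of 11.4 to 14.5. Percentiles there were 66.9 and 63.5 for WT, 74.3 and 72.1 for CBE_1, and 74.8 and 72.8 for CBE_2. WT was lower by 8.29 points, and the mutated lines lay 0.589 points apart on average. Taken as a share of its own list the difference from WT was 0.570 points.

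**Figure D2:**
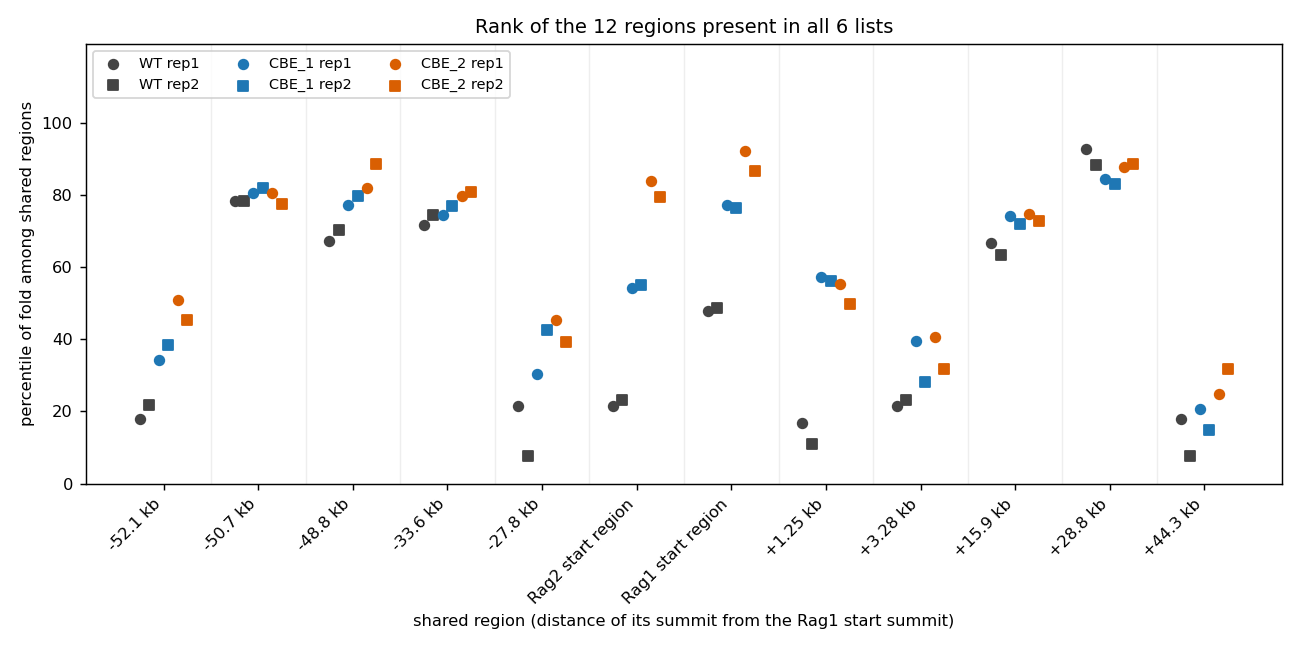
Percentile of the deposited fold among the 47767 shared regions (vertical axis) for the 12 shared regions of the locus in the order of the chromosome (horizontal axis, distance of the summit from that of the Rag1 start). Points are single libraries, circles the replicate numbered 1 and squares the replicate numbered 2, with WT in grey, CBE_1 in blue and CBE_2 in orange. At the Rag2 start the lines stand apart, from 21.6 in WT to 83.9 in CBE_2, while at -50.7 kb all libraries lie between 77.5 and 82.0.

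Upstream of Rag2, where its known enhancers lie, strong peaks were present in all lines. Which of the regions corresponds to Erag was not determined, because no enhancer annotation of mm9 was used. A region at 101438289 to 101439437, its summit 25.9 kb from that of the Rag2 start, had folds of 14.3 to 18.5. It stood at 78.5 and 78.4 for WT, 80.6 and 82.0 for CBE_1, and 80.6 and 77.5 for CBE_2, so that CBE_2 overlapped WT. The mean difference of 1.72 points was exceeded or matched by 42.1% of all shared regions, and as a share of its own list it was -1.68 points. In percentiles, the 1.72 points were the smallest difference in size among the 12.

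The widest of these regions, 2566 bp from 101439896 to 101442461 and 24.0 kb from the Rag2 start summit, ranked in the order of the lines. It stood at 67.3 and 70.4 for WT, 77.4 and 79.7 for CBE_1, and 82.1 and 88.7 for CBE_2, a difference of 13.1 points (exact permutation p = 0.0667, two-sided) that was 20.3 points with the better 50% of each list. Taken as a share of its own list the difference was 3.47 points, and CBE_1 overlapped WT. The summit of the region stayed within 11 bp in the 6 libraries. The small region on the outer side of these, at 101437294 to 101437938, stood at 17.9 and 21.9 for WT, 34.4 and 38.4 for CBE_1, and 50.9 and 45.5 for CBE_2. Its difference was 22.4 points (exact permutation p = 0.0667, two-sided), reached by 4.32% of shared regions, and 11.7 points with the better 50% of each list. Taken as a share of its own list it was 7.14 points. The deposited folds of this small region were 4.65 and 4.94 for WT, 4.83 and 5.32 for CBE_1, and 8.09 and 7.09 for CBE_2. In fold, CBE_1 thus overlapped WT.

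Nearer to Rag2 a strong region and a weak one were shared. The strong one, at 101455449 to 101456893 and 8.84 kb from the Rag2 start summit, had folds of 13.7 to 15.8. Its percentiles were 71.8 and 74.5 for WT, 74.5 and 77.1 for CBE_1, and 79.9 and 80.9 for CBE_2. All mutated libraries ranked above WT, by 4.99 points on average (exact permutation p = 0.133, two-sided), but CBE_1 replicate 1 exceeded WT replicate 2 by less than the rounding of these values. As a share of its own list the difference was -0.702 points. The weak one, at 101460742 to 101462349 and 3.01 kb from the Rag2 start summit, had folds of 3.63 to 7.23. It stood at 21.6 and 7.52 for WT, 30.4 and 42.6 for CBE_1, and 45.4 and 39.4 for CBE_2, a difference of 24.9 points. Duplicates were far apart here, by 14.0 points in WT and 12.2 in CBE_1, and the mutated lines overlapped. The difference of this weak region was 12.3 points as a share of its own list. Its deposited folds were 4.98 and 3.63 for WT, 4.52 and 5.73 for CBE_1, and 7.23 and 6.33 for CBE_2. In fold, CBE_1 thus overlapped WT.

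On the side where Traf6 follows Rag1 in the gene order, the 2 farthest shared regions did not separate WT from both mutated lines. The region at 101518095 to 101520010, 28.8 kb from the Rag1 start summit, had the highest fold of the locus in 4 of the 6 libraries and shared it with another region in CBE_2 replicate 2. Its percentiles were 92.9 and 88.3 for WT, 84.4 and 83.0 for CBE_1, and 87.9 and 88.7 for CBE_2. Both CBE_1 libraries ranked below both WT libraries, CBE_2 overlapped WT, and the difference was -4.59 points (exact permutation p = 0.2, two-sided), or -2.27 without WT replicate 1. The last shared region, at 101533665 to 101534264, stood at 17.9 and 7.52 for WT, 20.8 and 14.8 for CBE_1, and 24.8 and 31.9 for CBE_2, so that CBE_1 overlapped WT. Its difference of 10.4 points was 4.64 points without WT replicate 2 and 1.60 points as a share of its own list.

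Of the 12 shared regions of the locus, 9 had all 4 mutated libraries ranked above the WT pair, where 20.3% of all shared regions did. On the rest of chromosome 2 the share was 21.9% of 3797 regions. None of the 12 ranked lower in all 4, where 20.1% of all shared regions did. The median difference of the 12 was 12.9 points, against 0.199 for all shared regions and 0.887 for the rest of chromosome 2. From 25 kb before the Rag2 span to 25 kb after the Rag1 span, all 8 shared regions ranked higher in the mutated libraries. The 3 of the 12 that did not were the region 25.9 kb from the Rag2 start summit and the 2 farthest on the Traf6 side. As the place of the strongest peak in its own list, given as a share of the list's length, 3 of the 12 stood above WT in all 4 mutated libraries: the Rag2 start, the Rag1 start and the region 1.25 kb from the latter. On that scale 7.13% of all shared regions did, and 2 of the 12 stood below WT in all 4, where 40.5% of all did. The count of 9 therefore holds for places among the shared regions only. Deposited folds, which are values within their own lists, did not all follow it. At the regions 27.3, 8.84 and 3.01 kb upstream of the Rag2 start summit, CBE_1 folds overlapped those of WT. The same held 3.28 kb from the Rag1 start summit. At the others of the 9, every mutated fold was above both WT folds. In the better 50% of each list 5 of 9 shared regions ranked higher, where 20.1% of all did.

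**Figure D3:**
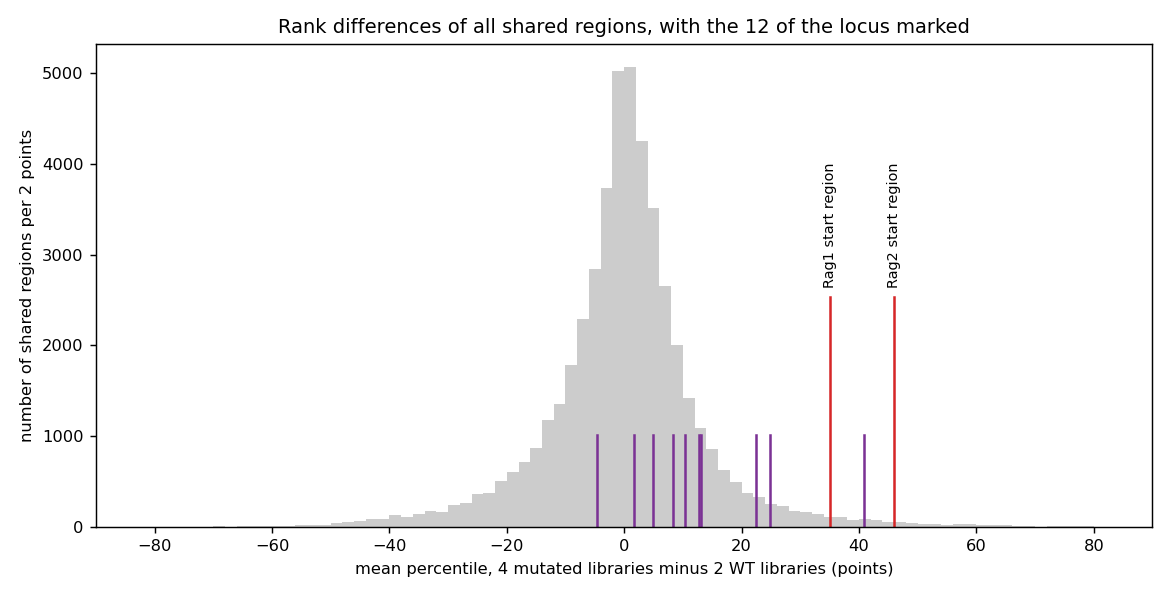
Number of shared regions (vertical axis, in classes of 2 points) by the difference in mean percentile, mutated minus WT libraries (horizontal axis), over all 47767 shared regions. Lines mark the 12 regions of the locus, in red and taller for the Rag1 start at 35.1 and the Rag2 start at 45.9 points; the 12 run from -4.59 to 45.9 points around a median of 12.9.

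Compared line by line, both CBE_1 libraries ranked above both WT libraries in 10 of the 12 regions, where 36.9% of all shared regions did. Both CBE_2 libraries also did so in 10, where 33.2% did. CBE_1 ranked below WT in 1 region (33.6% of all) and CBE_2 in none (33.2% of all). The median difference from WT was 10.6 points for CBE_1 and 16.1 points for CBE_2. These comparisons use the same WT libraries. As shares of their own lists, both CBE_1 libraries stood above both WT libraries in 3 regions (13.0% of all) and below them in 4 (65.8% of all). For CBE_2 these counts were 9 (20.5% of all) and 2 (47.7% of all). Between the mutated lines, both CBE_2 libraries ranked above both CBE_1 libraries in 7 of the 12 regions, where 31.5% of all did, and below them in 1, where 34.1% did. As shares of their own lists CBE_2 stood above CBE_1 in 11 regions (55.7% of all) and below it in none (14.8% of all). In 5 regions the lines did not overlap and stood in the order WT, CBE_1, CBE_2, where 4.90% of all shared regions did. These were the Rag2 and Rag1 starts and the regions 27.3, 24.0 and 8.84 kb upstream of the Rag2 start summit. Of these, only the Rag2 and Rag1 starts kept that order as shares of their own lists. On that scale CBE_1 overlapped WT at the regions 27.3 and 24.0 kb upstream and stood below WT at the region 8.84 kb upstream.

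The order of the 12 regions within the locus also differed between the lines. By fold, with ties sharing the better place, the Rag1 start was in place 6 of 12 in both WT libraries, 3 and 5 for CBE_1, and 1 and 3 for CBE_2. The Rag2 start was in place 7 in WT, 8 in CBE_1, and 3 and 5 in CBE_2. The region 25.9 kb from the Rag2 start summit was in place 2 in WT and CBE_1, and 5 and 6 in CBE_2. In CBE_2 replicate 1 the Rag1 start had the highest fold of the locus.

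Bases covered by peaks separated the lines most around the gene starts. In 4 of the 12 shared regions every mutated library covered more bases than both WT libraries, where 7.36% of all shared regions did. These 4 are the Rag2 start, the Rag1 start and the 2 regions 1.25 and 3.28 kb from the Rag1 start summit. At the Rag1 start peaks covered 715 and 937 bp for WT, 1466 and 1453 bp for CBE_1, and 1948 and 1911 bp for CBE_2. No region was covered less in all 4 mutated libraries, where 28.8% of all were. Both CBE_2 libraries covered more than each of the other 4 in 10 of the 12 regions, where 14.7% of all did. The depth of each library also moves peak edges, and its part in these widths was not tested.

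**Figure D4:**
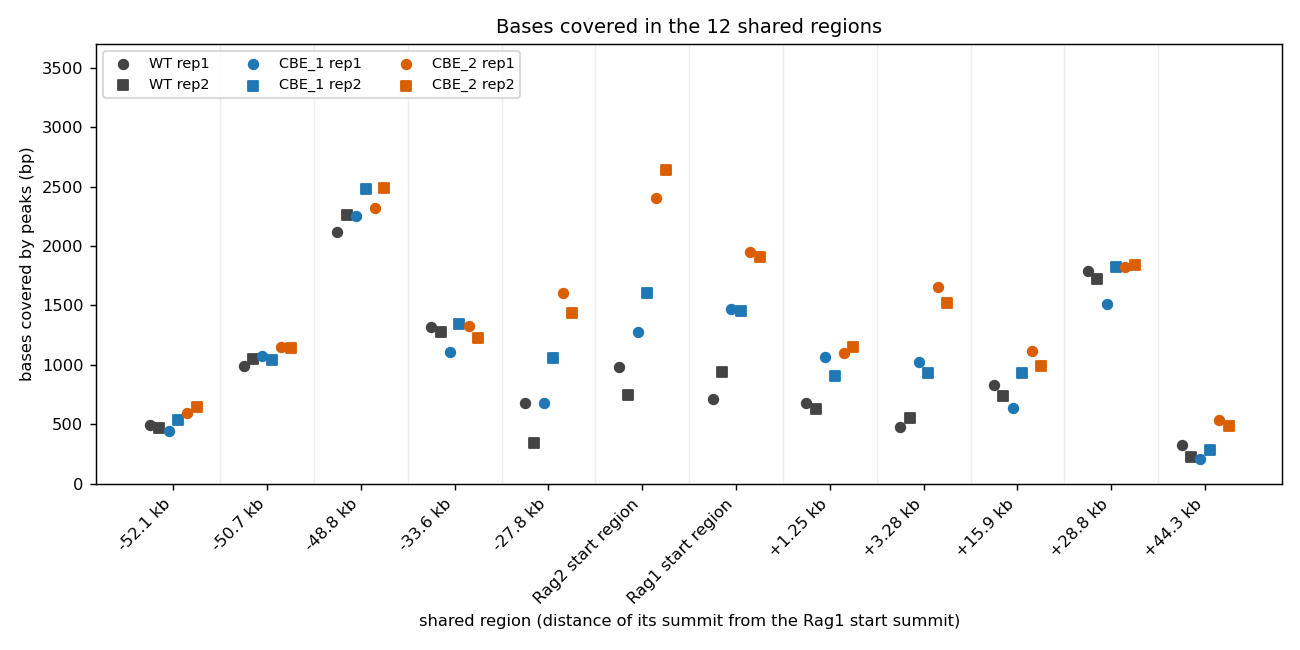
Bases covered by peaks (vertical axis, bp) in each of the 12 shared regions (horizontal axis, as distance of the summit from that of the Rag1 start), with 1 point per library in the colours and shapes used for the percentiles. The CBE_2 points reach 2637 bp at the Rag2 start, where WT has 983 and 747 bp, and lie close to the others at -33.6 kb.

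The other 16 regions were missing from at least 1 list and were weak, with folds of 2.08 to 5.27. CBE_2 replicate 1 had a peak in 13 of them and CBE_2 replicate 2 in 11, against 5 in each WT library and 2 and 3 in those of CBE_1. In shares this was 81.2% and 68.8% for CBE_2, 31.2% in each WT library, and 12.5% and 18.8% for CBE_1. Of all 101957 regions not in every list, CBE_2 held 38.4% and 40.6%, WT 57.0% and 49.8%, and CBE_1 15.5% and 23.7%. Found in a single list were 5 of the 28 regions (17.9%), where 27.9% of all regions were. CBE_2-only regions numbered 3 (10.7%, against 3.14% of all regions). Beside the one inside Rag1 they lay upstream of Rag2, at 101444271 to 101444511 (folds 4.17 and 3.87) and at 101444891 to 101445242 (folds 2.82 and 2.47). When the lists were cut to the same length 1 CBE_2-only region was left, and in the better 50% of each list none. Without CBE_2 replicate 2 there were 6.

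Regions missing only from CBE_1 numbered 2 (7.14%, against 5.05% of all regions), both on the Traf6 side. They were at 101520888 to 101521731, where the WT lists gave folds of 3.46 and 3.41 and the CBE_2 lists 3.43 and 2.58, and at 101555821 to 101556346, where they gave 4.44 and 3.96, and 3.43 and 3.54. The CBE_1 lists are the shortest, and with lists of the same length 1 CBE_1-absent region was left. None of the 28 was WT-only, a pattern of 8.68% of all regions, and none was mutated-only, a pattern of 1.52%. CBE_1-only regions (0.667% of all) and CBE_2-absent regions (0.653% of all) did not occur either. Regions present in all 6 lists made up 42.9% of the 28, against 31.9% of all regions.

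The remaining regions followed no such pattern. At 101454867 to 101455242, upstream of Rag2, a peak was listed in every library except WT replicate 1, with folds of 2.97 to 4.54. At 101448690 to 101448958 WT replicate 2 and both CBE_2 libraries had one, with folds of 3.43 to 3.76. At 101538915 to 101539800, on the Traf6 side, only CBE_1 replicate 1 lacked a peak. At the borders of the window the nearest region outside was at 101373887 to 101374269 on the low side, present in WT and CBE_2 but not in CBE_1, and at 101563067 to 101563318 on the high side, in WT replicate 2 alone.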

How the data were processed

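ATAC-seq marks DNA open to a transposase. The authors deposited 1 peak list per library, without pooling. The submitters' processing notes name Trimmomatic, Bowtie2, SAMtools, Picard and mm9 and give no versions. Which peak caller was used, and whether reads were shifted, is not given in the sources used here. In every list the deposited score is the −log10 q-value times 10, cut to a whole number. Fold (a ratio over background), −log10 p-value and −log10 q-value are also deposited, 1 of each per peak, and served here to describe and order the peaks of 1 list. Depth is unknown, so no counting intervals are given.

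Regions were merged with Python 3.11.15 and pandas 2.3.3, and percentiles use average ranks. The merging code was tested on simulated lists. Replicates are numbered in accession order. Alternatives were other list thresholds and lengths, windows, ranking by q-value, a 50% overlap and leaving out each library. Ranking by q-value returned the values of ranking by fold and is no separate check. The place of a peak as a share of its own list was added after seeing the data. Named with values were regions within 2 kb of the gene spans, shared regions, and those with a presence pattern of 1 line or genotype. The members and lists were chosen with earlier results of these data known. Planned counts for cell type markers and V(D)J recombination genes were not run, since no mm9 annotation was used. Coordinates are 1-based. Both genes matched the RefSeq promoter table.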

Additional observations from a re-analysis of the deposited data

How the results depend on the processing

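The differences in share of peaks, share of covered bases and percentile of the 12 regions kept their sign under every setting that gave a value except 1, the place of a peak as a share of its own list, which was chosen after seeing the data. On it regions above WT in all mutated libraries numbered 3 and those below 2. The differences turned to -1.68 points for the region 25.9 kb and to -0.702 points for that 8.84 kb from the Rag2 start summit. With the better 50% of each list 3 of the 12 were no longer shared and gave none. The setting that ranked by q-value could not change a sign, since its values were those of ranking by fold. Under the other settings the difference was 40.3 to 49.8 points at the Rag2 start and 31.6 to 50.7 at the Rag1 start, and as shares of the own list 20.9 and 14.5 points. Regions ranking above WT in all mutated libraries, 9 of 12, numbered 5 of 9 with the better 50% of each list. Without 1 library they numbered 9 to 11 of 12 or 13 shared regions, where 22.7% to 26.7% of all shared regions did. Regions below WT numbered 1 with 50 kb added to the window, and 0 to 1 without 1 library, the 1 without WT replicate 2 or CBE_2 replicate 2. CBE_2-only regions, 3 in number, were 0 with the better 50%, 1 with lists of the same length, and 3 to 6 without 1 library, the 6 without CBE_2 replicate 2. CBE_1-absent regions, 2 in number, were 0 with the better 50% and in the narrower window, 1 with lists of the same length, and 4 with 50 kb added. Mutated-only regions were 1 with lists of the same length and 0 to 1 without 1 library, the 1 without CBE_1 replicate 1 or WT replicate 2. CBE_1-only regions were 0 to 1, the 1 without CBE_1 replicate 2. Why these values moved was not tested beyond the fewer peaks or libraries that enter. No paired analysis was possible because the labels give no replicate numbers. Unknown read depth limits all statements on missing or narrow peaks.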
